A study of Mus musculus with 6 samples.

Results

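A set of 8 genes that hold back T cell activation was examined for open chromatin in mouse CD8+ T cells: Cblb, Cbl, Itch, Rnf128, Dgka, Dgkz, Ptpn2 and Ptpn22. A peak was counted for a gene if its summit lay inside the gene, or within 100 kb of it with no other protein-coding gene nearer. This gave 771 of the 573921 peaks deposited for 6 libraries. Peaks that overlapped were merged across libraries into regions, of which 185 of 134174 belonged to these 8 genes.

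Splenic CD8+ T cells, isolated by removal of other cells and activated with antibodies against CD3 (5 µg/mL) and CD28 (1 µg/mL), were cultured for 48 h below a membrane with 0.4-µm pores. Above it were lung adenocarcinoma cells resistant to PD-1 blockade, as a control (Res-ctrl, 3 libraries) or with a short hairpin knockdown of Fabp7, a fatty acid binding protein (Res-shFabp7, 3 libraries). Fabp7 was knocked down in the tumour cells alone, which these libraries do not measure. The sources used here do not give mouse strain or age, the hairpin sequence or the number of tumour clones. ATAC-seq was used, in which a transposase cuts open DNA, and the libraries of each group are biological replicates per the labels. The question was whether T cell chromatin differed between the co-cultures.

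The products of these genes act at successive steps below the T cell receptor. Cblb, Cbl, Itch and Rnf128 encode E3 ubiquitin ligases, which tag signalling proteins for degradation or altered traffic and are known for their part in anergy, the unresponsive state of T cells stimulated without costimulation. Dgka and Dgkz encode diacylglycerol kinases, which remove the lipid that carries the signal to Ras. Ptpn2 and Ptpn22 encode tyrosine phosphatases, which remove phosphate from Lck and other kinases.

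The lists held 82153 to 105796 peaks, and every Res-shFabp7 list was longer than every Res-ctrl list. The pileup of the local background, a relative measure of depth, was 1.03, 0.868 and 0.959 in the Res-shFabp7 libraries and 0.709, 0.608 and 1.01 in the Res-ctrl libraries, so that Res-ctrl replicates 1 and 2 were the shallowest. All 8 CD8 T cell markers, which include genes of T cells in general such as Cd3e and Lck, had a region called in all 6 libraries. So did 3 of 3 CD4 T cell markers, 3 of 5 B cell markers, 3 of 5 myeloid markers and 1 of 6 lung epithelial markers. No such region lay at Krt8, Krt18, Krt19, Sftpc or Nkx2-1. Of all 21887 genes 14291 had such a region, and the marker counts do not tell CD8 from CD4 T cells. In bulk libraries a change in the share of cells with an open region and a change in how open it is per cell cannot be told apart.

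The DNA before the start of transcription is shown for 5 members, because the highest or the differing regions of these genes lie on it or beside it. Each line gives the 250 bases before an annotated start, 5′ to 3′ on the gene's strand, from RefSeq on GRCm38.p6, the assembly of mm10. Of the 8 genes 6 had a start in the RefSeq table, and Itch and Ptpn2 did not. Capitals mark exact matches, on either strand, to SP/KLF (GGGCGG), NFAT (GGAAAA), RUNX (TGTGGT) and EGR (GCGTGGGCG or GCGGGGGCG) motifs. The windows are chr16:52031299-52031548 (plus strand) for Cblb, chr9:44234047-44234296 (minus) for Cbl, chrX:139610370-139610619 (plus) for Rnf128, chr10:128745085-128745334 (minus) for Dgka and chr3:103860027-103860276 (plus) for Ptpn22.
Cblb: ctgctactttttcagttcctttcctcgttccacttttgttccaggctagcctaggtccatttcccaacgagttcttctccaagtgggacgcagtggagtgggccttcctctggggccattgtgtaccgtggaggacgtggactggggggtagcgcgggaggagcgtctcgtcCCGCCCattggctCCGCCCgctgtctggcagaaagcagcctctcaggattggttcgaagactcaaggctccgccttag
Cbl: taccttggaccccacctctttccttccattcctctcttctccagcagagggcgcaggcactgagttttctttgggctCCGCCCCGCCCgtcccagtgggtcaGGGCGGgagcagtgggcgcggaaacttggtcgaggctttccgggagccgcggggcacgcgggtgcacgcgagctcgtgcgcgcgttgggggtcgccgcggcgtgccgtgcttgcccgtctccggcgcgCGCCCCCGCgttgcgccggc
Rnf128: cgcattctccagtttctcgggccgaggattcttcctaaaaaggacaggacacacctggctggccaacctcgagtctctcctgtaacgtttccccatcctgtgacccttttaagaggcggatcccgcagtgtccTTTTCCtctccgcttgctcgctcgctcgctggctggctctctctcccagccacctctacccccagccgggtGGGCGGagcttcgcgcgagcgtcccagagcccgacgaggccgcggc
Dgka: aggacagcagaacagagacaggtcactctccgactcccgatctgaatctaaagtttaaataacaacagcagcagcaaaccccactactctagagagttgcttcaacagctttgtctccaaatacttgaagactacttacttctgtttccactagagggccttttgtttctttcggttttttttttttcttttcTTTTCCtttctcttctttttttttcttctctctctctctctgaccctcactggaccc
Ptpn22: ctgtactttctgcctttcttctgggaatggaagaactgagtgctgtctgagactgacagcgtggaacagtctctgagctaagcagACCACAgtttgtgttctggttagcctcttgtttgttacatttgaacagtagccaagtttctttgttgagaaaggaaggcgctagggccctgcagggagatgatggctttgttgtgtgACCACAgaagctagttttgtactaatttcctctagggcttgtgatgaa

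The windows differed in base composition. The Cbl window was 71.6% G and C with 33 CpG, and those of Rnf128 and Cblb were 63.2% with 21 and 58.8% with 14. The Ptpn22 and Dgka windows were 46.0% with 2 CpG and 41.2% with 3, below the median of 52.4% and 6 over the 32851 promoters in the table. In the windows shown, SP/KLF matches numbered 3 at Cbl, 2 at Cblb, 1 at Rnf128 and 0 at Ptpn22 and Dgka. Of all windows 32.7% hold 1 or more. The Ptpn22 window has 2 RUNX matches (in 14.0% of all windows), the Rnf128 and Dgka windows 1 NFAT match each (20.4%) and the Cbl window 1 EGR match (3.06%). The letters of AP-1 (TGANTCA), held by 6.75% of all windows, and of CRE (TGACGTCA), held by 1.55%, were not in these 5 windows. Nor were those of ETS (CCGGAAG, 6.91%), the E-box (CACGTG, 6.02%), the TATA box (TATAAA, 12.4%) or NF-kB (0.356%). All 250 bases lay in a region called in all 6 libraries at Cblb, Cbl, Rnf128 and Ptpn22, and 0 did at this start of Dgka. Windows at other annotated starts, not shown, differed from these. Those of Dgka were 60.0, 72.4 and 59.2% G and C with 2, 3 and 2 SP/KLF matches. The last also held 1 E-box and 1 TATA match. The other Ptpn22 window was 49.2% with 0 RUNX matches and 148 bases in such regions. The Dgkz windows were 77.6 and 62.4% with 3 and 1 SP/KLF matches.

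The members ranged from many open regions to 1. Cblb had 74 regions, of which 29 were called in all 6 libraries, and 80 of 21887 protein-coding genes had more of the latter. Dgkz and Ptpn22 had 11 each, Cbl 10, Ptpn2 7, Dgka 6, Itch 4 and Rnf128 1, where the median over all genes is 1. Together 79 of the 185 regions were called in all 6 libraries, against 42.2% of all regions. These counts, which include assigned regions outside the gene, were also divided by gene length. Per 10 kb they were 2.52 at Dgkz, 2.40 at Dgka, 1.98 at Ptpn22 and 1.64 at Cblb. At Itch and Rnf128 they were lower, at 0.428 and 0.0911. The Dgka regions from 128745396 and from 128746136 lie outside the gene, so that 2.40 is not a density inside it. Of the 185 regions 158 lay inside the gene or across its end and 27 outside, and 48 were called in a single library.

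**Figure D1:**
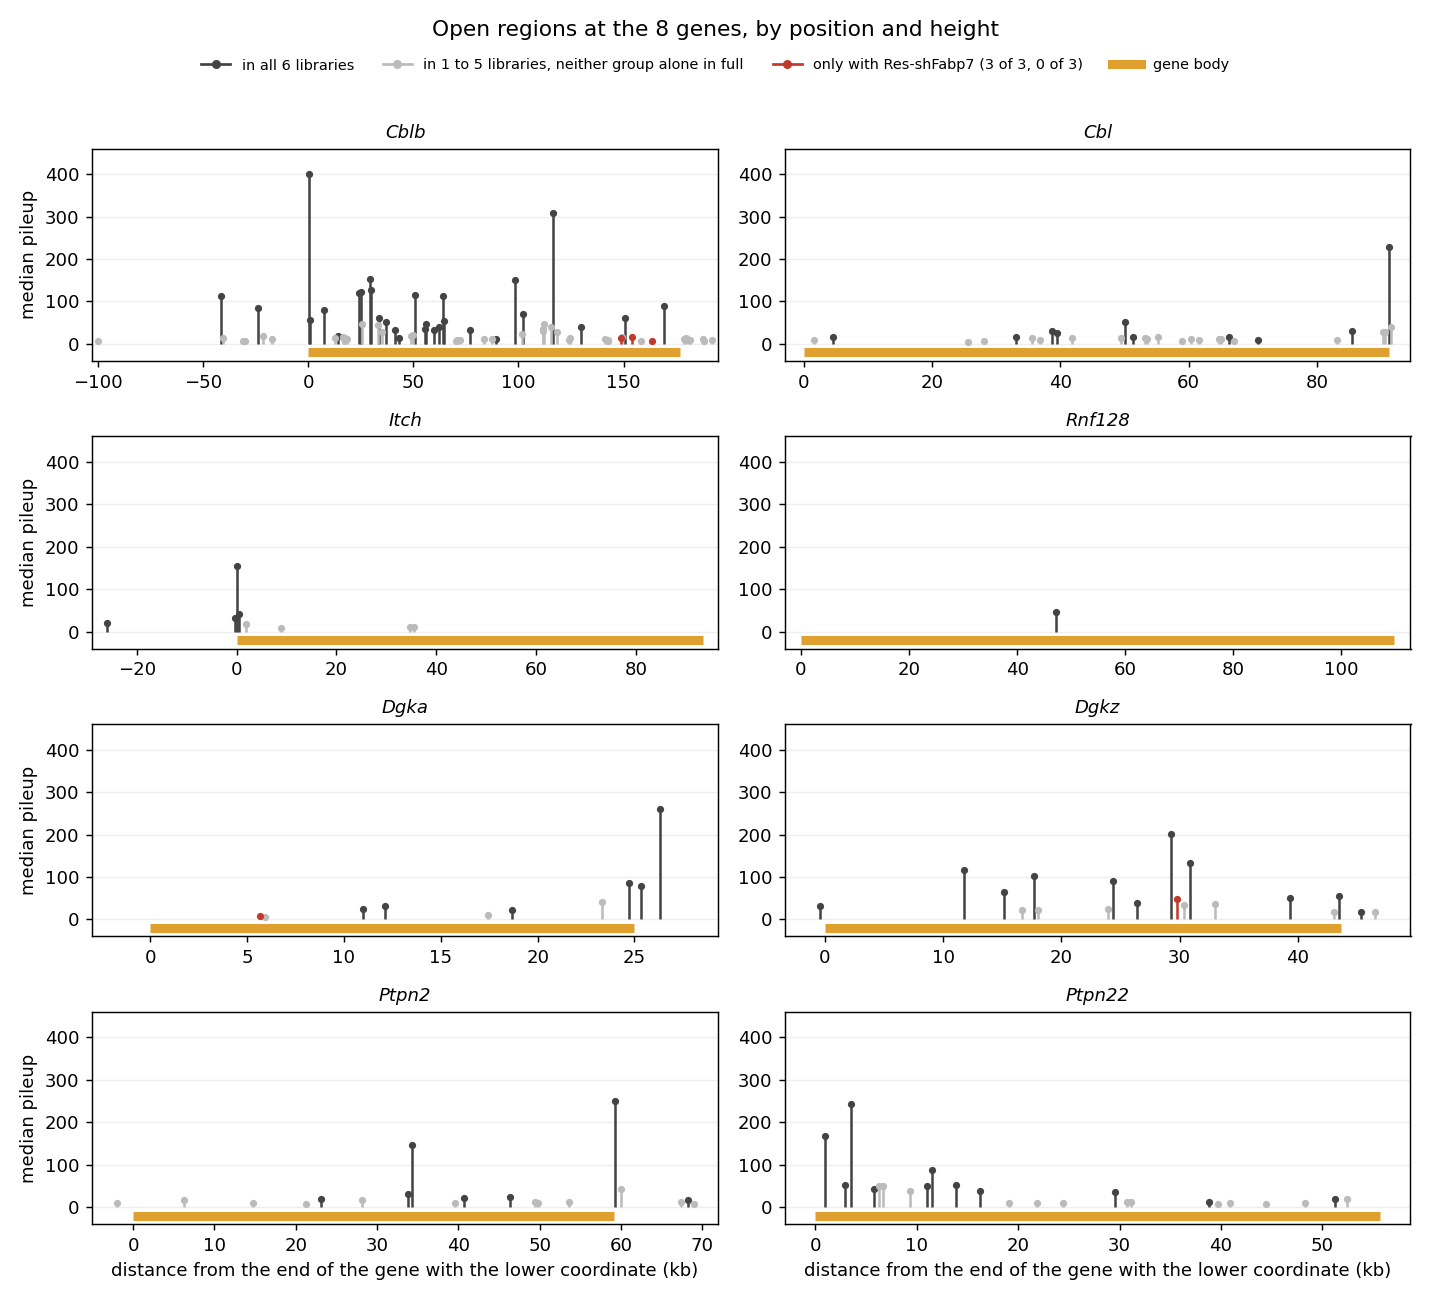
Open regions at the 8 genes. Each line is a merged region at its distance (kb) from the end of the gene with the lower coordinate, and its height is the median pileup over the libraries that called it. Dark lines are the 79 regions in all 6 libraries, red lines the 5 called only with Res-shFabp7, and the tallest line is the Cblb start.

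**Figure D2:**
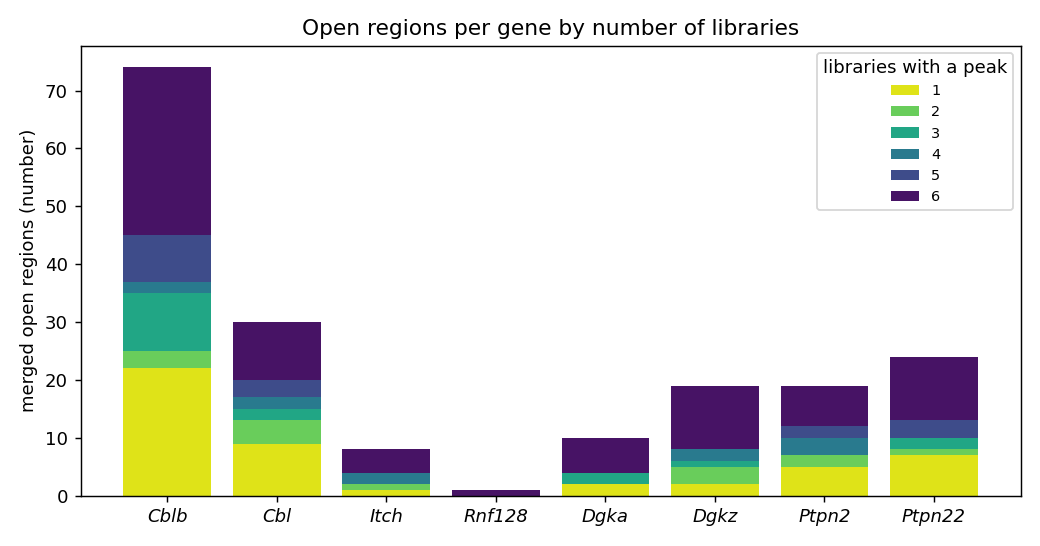
Number of merged regions per gene (bar height), divided by the number of libraries, from 1 to 6, with a peak there. Cblb has 74 regions, 29 of them in all 6 libraries, and Rnf128 has 1.

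Among the E3 ligase genes, the start of Cblb, which encodes the ligase that makes activation depend on CD28, was the highest member region. On chromosome 16 from 52031054 to 52031834 the pileup was 396, 404 and 459 with Res-shFabp7 and 369, 338 and 466 with Res-ctrl. In each library this stood at percentile 99.0 to 99.5 of the 56610 regions called in all 6, and the groups overlapped in pileup. A further high region of Cblb, named after its values were seen, lay 115571 bp downstream of the start, from 52147120 to 52147905, at pileups of 316, 300, 340, 274, 208 and 350 (here and below, Res-shFabp7 replicates 1 to 3, then Res-ctrl 1 to 3). Its height did not pass the test between groups (limma adjusted p = 0.859). The lowest Cblb region in all 6 libraries, from 52074302, had pileups of 13, 15, 16, 13, 9 and 16. The largest differences in either direction, named after their values were seen, were at regions from 52107852 (pileups of 55, 33, 37, 17, 13 and 34, difference 0.53) and from 52091010 (30, 32, 33, 33, 30 and 46, difference -0.40). In percentile the groups did not overlap at either, and neither passed (limma adjusted p = 0.0893 and 0.128), though the former did without Res-ctrl replicate 3 (adjusted p = 0.0354).

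At Cbl, the relative of Cblb that acts on kinases next to the receptor, the start was the highest of 10 regions in all 6 libraries. Its pileups were 256, 223, 232, 216, 185 and 251 on chromosome 9 from 44233898 to 44234430, at percentiles 94.4 to 96.1 in each library. The other 9 regions lay lower, down to 13, 9, 7, 9, 6 and 8 at the region from 44213549. The weakest peaks of the lists have a pileup of 5 to 6.

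Itch, a ligase of the HECT class that targets JunB, was open at 1 end and little elsewhere. The region at the lower-coordinate end of the gene (chromosome 2, 155133364 to 155133603) had pileups of 158, 150, 159, 145, 130 and 200. Its percentile averaged 88.0 ± 0.109 in the Res-shFabp7 libraries and 90.8 ± 0.154 in the Res-ctrl libraries (SD, n = 3 each), and the groups did not overlap, but the difference did not pass (limma adjusted p = 0.205). Of the 4 Itch regions in all 6 libraries, 3 had a lower mean rank with Res-shFabp7 and 0 passed. The lowest, 25672 bp outside the gene, was at 22, 19, 33, 17, 13 and 23.

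Rnf128, which encodes the membrane-bound ligase GRAIL, had a single region, and it held the annotated start. On the X chromosome from 139610080 to 139611121 the pileups were 48, 44, 53, 30, 30 and 54. The percentile averaged 53.5 ± 3.4 in the Res-shFabp7 libraries and 51.5 ± 4.1 in the Res-ctrl libraries (SD, n = 3 each; limma adjusted p = 0.875), and the groups overlapped.

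Of the kinase genes, Dgkz was open at 2 annotated starts. The start within the region from 91963477 to 91963885 on chromosome 2 had pileups of 151, 123, 142, 117, 95 and 174, and the other, from 91950326 to 91950729, had 135, 111, 92, 77, 81 and 138. Neither passed the test (limma adjusted p = 0.762 and 0.977). The highest Dgkz region lay 1111 bp downstream of a start, from 91961813 to 91962452, at 232, 192, 221, 183, 165 and 211, and the lowest, from 91978065, was at 13, 17, 19, 16, 13 and 22. In percentile the Res-shFabp7 libraries were all below the Res-ctrl libraries at that lowest region (difference -0.50, limma adjusted p = 0.347). The same held at a region across the lower-coordinate end of the gene, from 91931903 to 91932933 and named after its values were seen. Its pileups were 37, 25, 28, 41, 26 and 41 (difference -0.45, limma adjusted p = 0.102). It was assigned to Mdk as well, and Dgkz begins at 91932822, so the region is not that of Dgkz alone. Neither region passed.

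At Dgka the region just upstream of the gene was higher with Res-shFabp7. It lies 312 bp before the start shown above, on chromosome 10 from 128745396 to 128745559, and had pileups of 96, 88 and 91 with Res-shFabp7 and 51, 45 and 69 with Res-ctrl. Within their libraries these stood at percentiles 75.9, 75.4 and 75.2 and 66.4, 65.5 and 64.5, so that the groups did not overlap. The difference was 0.29 ± 0.088 (SE) in normal scores of the rank, a scale on which 1 is the SD over all regions (limma adjusted p = 0.0467). The region on the other side of that start, from 128744703 to 128745011 and named after its values were seen, had pileups of 107, 91, 119, 55, 60 and 83 and did not pass (limma adjusted p = 0.0672). The highest region assigned to Dgka, 1052 bp upstream, held summits nearest to Dgka and others nearest to Pym1. Its pileups were 280, 240, 291, 217, 180 and 297, and it did not pass the test (limma adjusted p = 0.798). Another annotated start of Dgka lay in a region from 128737453 to 128737659 that was called in 3 libraries, at a pileup of 10 and 16 in Res-shFabp7 replicates 1 and 3 and 7 in Res-ctrl replicate 1. The lowest Dgka region in all 6 libraries was at 22, 25, 19, 18, 24 and 21. The call of the upstream region was lost when any 1 of the 6 libraries was left out (limma adjusted p = 0.0762 to 0.161), with peaks merged across 200 bp (adjusted p = 0.0579) and with summit windows (adjusted p = 0.0586). With ranks of the authors' fold over local background its difference was 0.745 (limma adjusted p = 0.214), a setting in which 0 of all regions passed. With each library left out its difference was 0.279 to 0.298.

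Of the phosphatase genes, Ptpn22, whose product dephosphorylates Lck and Zap70, had a region inside the gene that was higher with Res-shFabp7. It lies 12327 bp downstream of the nearest start, on chromosome 3 from 103872604 to 103873026, with pileups of 51, 42 and 51 with Res-shFabp7 and 15, 19 and 36 with Res-ctrl. The percentiles were 54.1, 49.7 and 55.9 and 20.8, 33.2 and 39.5, a difference of 0.59 ± 0.161 (SE) in normal scores (limma adjusted p = 0.0298). Res-ctrl replicate 3 was the nearest to the Res-shFabp7 libraries. The call was lost without any 1 Res-shFabp7 library (limma adjusted p = 0.132, 0.0675 and 0.130 without replicates 1, 2 and 3). Without Res-ctrl replicate 1 the difference was 0.416 (limma adjusted p = 0.149), against Res-ctrl replicate 3 alone it was 0.307, and with ranks of the fold, where no region passed, 0.826 (adjusted p = 0.283). The Ptpn22 start, from 103859838 to 103860428, had pileups of 249, 241, 289, 190, 143 and 246. Its percentile averaged 95.9 ± 0.8 in the Res-shFabp7 libraries and 93.8 ± 1.2 in the Res-ctrl libraries (SD, n = 3 each), which did not pass (limma adjusted p = 0.0766). A region 10119 bp downstream of the start, named after its values were seen, was at 59, 61, 70, 32, 31 and 44 and did not pass either (limma adjusted p = 0.0665). The lowest Ptpn22 region, from 103895235, was at 12, 16, 21, 10, 8 and 12.

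**Figure D3:**
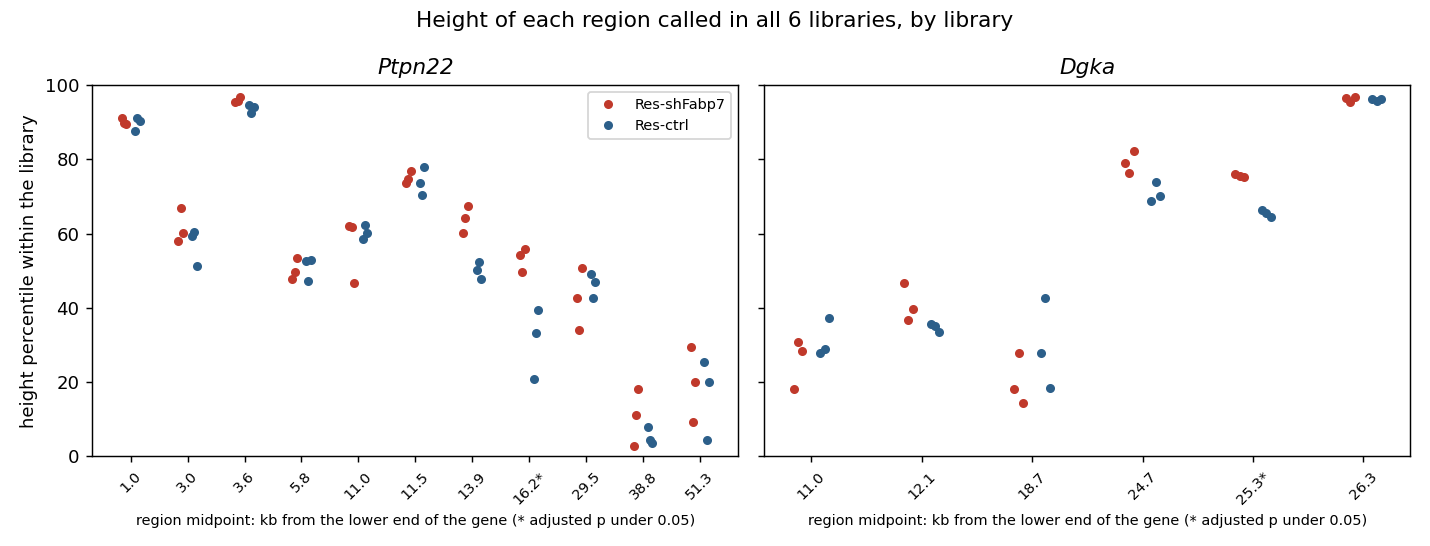
Height of each region called in all 6 libraries at Ptpn22 (11 regions) and Dgka (6), as the percentile within the library (y axis) by position (x axis, kb from the lower end of the gene). Points are libraries, red with Res-shFabp7 and blue with Res-ctrl, and the asterisks mark the 2 regions past the test. All red points lie above all blue points at these and at 2 further regions of each gene.

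Ptpn2 encodes a phosphatase that acts on Lck and on the JAK and STAT proteins below cytokine receptors. Its highest region lay across the higher-coordinate end of the gene, on chromosome 18 from 67724133 to 67725286, with pileups of 245, 256, 258, 225, 202 and 314 and percentiles of 95.2, 96.2, 95.6, 96.5, 96.7 and 96.8. The Res-shFabp7 libraries were all below the Res-ctrl libraries in percentile, and the difference of -0.12 did not pass (limma adjusted p = 0.324). With windows of 250 bp around summits in place of peaks, the region itself kept a difference of -0.12 and did not pass. A separate window beginning inside it, from 67724802 to 67725849, was lower with Res-shFabp7, by a difference of -0.85 (limma adjusted p = 0.00183). That window also spans a weaker region, from 67725399 to 67725641. The weaker region was called in 4 libraries, at pileups of 51 and 42 in Res-shFabp7 1 and 2 and 40 and 45 in Res-ctrl 1 and 3. Whether the window's height comes from the same summit in each library was not tested. With peaks, the largest difference at Ptpn2, named after its values were seen, was inside the gene, at the region from 67706043 to 67706443. It had pileups of 29, 26 and 31 against 16, 8 and 15 and a difference of 0.79 ± 0.266 (SE) in normal scores. It did not pass (limma adjusted p = 0.0811), but did without Res-ctrl replicate 1 (adjusted p = 0.0429). The lowest Ptpn2 region, from 67688418, was at 23, 20, 18, 12, 6 and 30.

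Over all 79 member regions in all 6 libraries, 2 were higher with Res-shFabp7 (limma adjusted p under 0.05) and 0 lower, where 2.72% and 1.19% of the 56610 regions tested were. At an unadjusted p under 0.05, 10 were higher and 4 lower, against 10.3% and 8.81% of all regions. The groups did not overlap in 22, of which 14 were higher, against 11.6% higher and 11.2% lower over all regions. The median difference was 0.04 over the members and -0.01 over all regions, in normal scores. By gene, 18 of 29 Cblb regions, 6 of 10 at Cbl, 8 of 11 at Ptpn22 and 4 of 6 at Dgka had a higher mean rank with Res-shFabp7, as did 4 of 11 at Dgkz, 3 of 7 at Ptpn2, 1 of 4 at Itch and the 1 at Rnf128. Without Res-shFabp7 replicate 1, 2 or 3, 0 member regions passed, where 0.465%, 1.16% and 0.816% of all regions passed as higher. With ranks of the authors' fold over local background 0 of all 56610 regions passed in limma, and at an unadjusted p under 0.05 the members had 3 higher and 3 lower, against 7.68% and 6.05% of all regions. Under that ranking the median difference was -0.05 over the members and -0.02 over all regions.

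**Figure D4:**
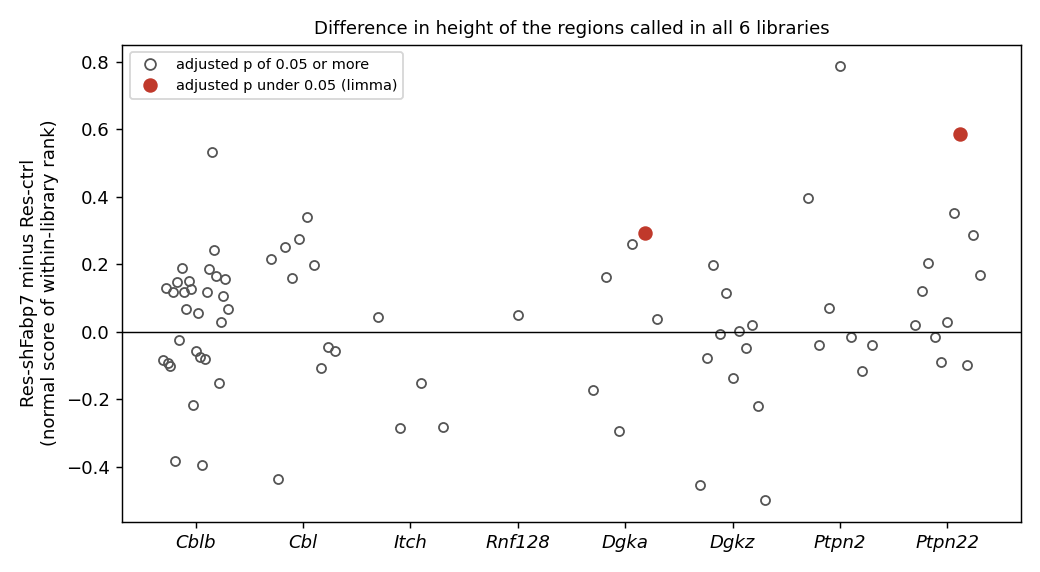
Difference in height between groups for the 79 regions called in all 6 libraries, in normal scores of the rank within a library (y axis), by gene and, within a gene, in order of position. The 2 filled points, at Dgka and Ptpn22, passed the test, and the others lie on both sides of 0.

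Regions called with 1 group and not the other were few. Of the 185 regions, 5 had a peak in 3 of 3 Res-shFabp7 libraries and 0 of 3 Res-ctrl libraries, against 2.28% of all regions, and 0 had the reverse, against 0.155%. They were 3 at Cblb, 1 at Dgka and 1 at Dgkz, all inside the gene. Against Res-ctrl replicate 3 alone, 10 of 183 member regions were called with all Res-shFabp7 libraries and not with it, and 16 with it and none of them, against 4.27% and 4.52% of all regions.

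The 3 Cblb regions lay in the last part of the gene, 148307, 153499 and 163347 bp downstream of the start. Their pileups were 20, 13 and 15 from 52179856 to 52180032, 16, 17 and 27 from 52185048 to 52185460, and 7, 9 and 8 from 52194896 to 52195093. The authors' fold over background was 3.52 to 6.64, and the highest of the 9 peaks, of pileup 27, stood above 51.0% of its library's list. For the region from 52179856, each Res-ctrl library had a peak 207 to 243 bp away, with a pileup of 12, 9 and 18. The Dgka region, from 128725724 to 128725864, had pileups of 7, 9 and 12. Here Res-ctrl replicate 1 had a peak 146 bp away with a pileup of 5.

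The Dgkz region stood apart in height, with pileups of 65, 47 and 48 from 91962511 to 91962675, and it lies beside the highest Dgkz region. The nearest Res-ctrl peaks, at pileups of 183, 165 and 211, ended 97, 86 and 59 bp away. With peaks merged across gaps of 200 bp it joined a region held by both groups. With equal numbers of peaks per library, the 82153 strongest, it was the sole member region still called only with Res-shFabp7, against 1.13% of all regions, and 0 were called only with Res-ctrl, against 0.527%.

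The share of a library's peaks that fell at each gene did not separate the groups. Cblb had 52, 50 and 58 peaks with Res-shFabp7 and 42, 43 and 52 with Res-ctrl, which per 1000 peaks of the library was 0.516 ± 0.0555 and 0.519 ± 0.0227 (mean ± SD, n = 3; exact permutation p = 1, two-sided). The largest differences were at Ptpn2, at 0.129 ± 0.0183 and 0.155 ± 0.0215, and at Dgkz, at 0.148 ± 0.0112 and 0.168 ± 0.0200 (exact permutation p = 0.2 each, where 3 against 3 libraries cannot go below 0.1). At Cbl the shares were 0.190 ± 0.0158 and 0.204 ± 0.0294, at Ptpn22 0.174 ± 0.00683 and 0.175 ± 0.0208, at Dgka 0.0742 ± 0.00712 and 0.0806 ± 0.0165, at Itch 0.0645 ± 0.00689 and 0.0648 ± 0.00737 and at Rnf128 0.0160 ± 0.00522 and 0.0154 ± 0.00715. With all 6 libraries the groups overlapped in all 8 genes. Over the 16425 genes with a peak they did not overlap in 7.37% with the higher share in Res-shFabp7 and in 17.1% with the lower.

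**Figure D5:**
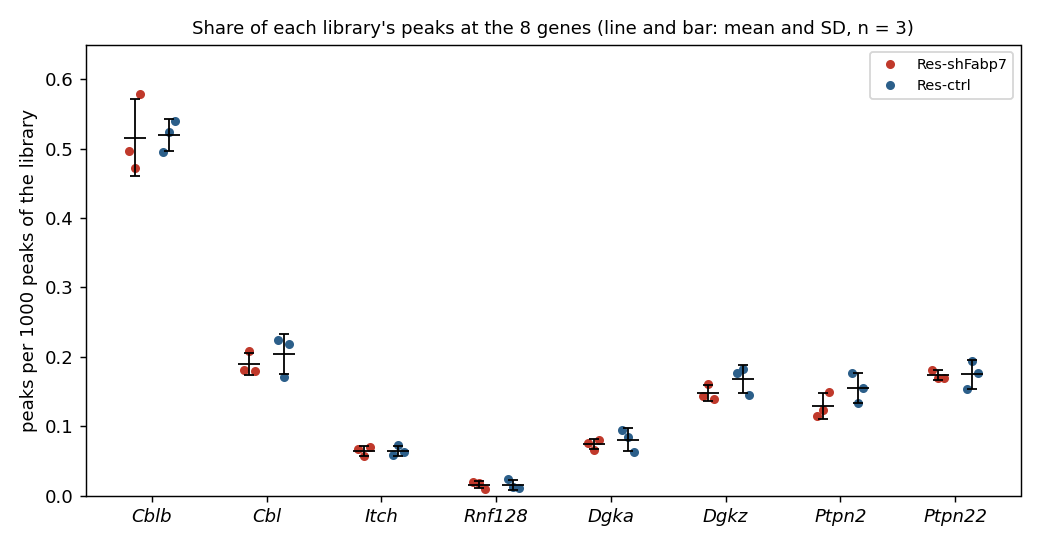
Peaks at each gene per 1000 peaks of the library (y axis) in the 3 Res-shFabp7 (red) and 3 Res-ctrl (blue) libraries, with the mean and SD. The groups overlap at each of the 8 genes, and Cblb takes the largest share, 0.516 and 0.519 on average.

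Other regulators of T cell receptor signalling and T cell tolerance, not all of them brakes, were read from a list of 62 genes that leaves out the 8 members. All 62 had a region in all 6 libraries. Genome-wide the count was 14291 of 21887 genes. By raw count, not divided by gene length, Ubash3b, a suppressor phosphatase, led with 31. Peli1, an E3 ligase, had 30, Rasa3, a Ras GTPase activating protein, 27, Ptprc, the phosphatase CD45, 26 and Pag1, an adaptor for Csk, 24. Of the list's 585 regions in all 6 libraries, 27 (4.62%) were higher with Res-shFabp7 and 8 (1.37%) lower (limma adjusted p under 0.05), in 23 genes. Of all regions 2.72% and 1.19% were. None of the list's calls held with ranks of the fold, where 0 of all 56610 regions passed. The median difference was 0.01, against -0.01 over all regions. Peli1 had a region from 21102337 to 21102963 on chromosome 11 at pileups of 112, 84, 134, 42, 49 and 74 (limma adjusted p = 0.00349). Egr2, a transcription factor of the anergy program, had a region from 67493569 to 67493898 on chromosome 10 at 75, 54, 62, 24, 26 and 33 (limma adjusted p = 0.00455). Nedd4, an E3 ligase related to Itch, had a region at 105, 87, 113, 46, 47 and 65 (limma adjusted p = 0.00501). In these 3 regions all Res-shFabp7 libraries were above all Res-ctrl libraries, but the regions were picked for low adjusted p, which favours such separation. The list's calls were not retested with 1 library left out. Over all regions the 1538 higher calls became 268, 669 and 472 without Res-shFabp7 replicates 1, 2 and 3.

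Nrp1, a coreceptor also found on regulatory T cells, moved both ways, with 2 regions higher, the clearer at pileups of 39, 41, 40, 12, 10 and 19, and 1 lower at 21, 24, 20, 31, 29 and 45 (limma adjusted p = 0.00354 and 0.00655). Regions at Cd5, Traf6, Ptpn11, Ptprc, Sla and Spry2 were higher as well, with differences of 0.30, 0.39, 0.42, 0.40, 0.31 and 0.80 in normal scores (limma adjusted p = 0.0116 to 0.0157), and a further Cd5 region was lower at -0.29 (limma adjusted p = 0.0186). Regions called only with Res-shFabp7 numbered 22 over the list and only with Res-ctrl 3, of 1380, against the 2.28% and 0.155% of all regions. Nedd4l had 3 and 1, Tnfaip3, a ubiquitin-editing brake on NF-kB, 3 and 0, Nrp1 and Ptprj 2 and 0 each, and Pag1 1 and 1.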

How the data were processed

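Each of the 6 ATAC-seq libraries gave 35 to 75 M pairs of 76-base reads, per the labels' protocols. The submitters' processing notes name MACS2 2.2.7.1, Bowtie 1.1.2, Trim Galore 0.6.5 and cutadapt 2.8, with mm10 as the build. The sources used here do not give read shifting, duplicate handling or the MACS2 mode. Lists were deposited separately by library, with the authors' −log10 p-value and q-value of each peak (q under 0.05), the pileup, a coverage signal at the summit that is not scaled for depth, and the fold, a ratio over local background. Starts in the files count from 0 and were printed from 1.

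Summits were assigned to the nearest of 21887 protein-coding genes of RefSeq (GRCm38.p6), whose table has no exons, so exon, intron and UTR are not given. Peaks that shared 1 bp were merged. A region took every gene of its summits. Heights were the ranks of pileup within each library over the regions called in all 6, tested with limma 3.58.1 (R 4.3.3) on normal scores, with Benjamini-Hochberg adjustment over all 56610 regions. On simulated heights with 200 regions changed 2-fold the test recovered 82 and made 2 false calls. These heights were drawn independently, with a spread that was assumed and not estimated from these libraries. The 2 false calls are therefore not an error rate for these data. Ranks need not remove effects of depth on height, which was not tested. Shares of peaks were compared by exact permutation.

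The members, lists and tests were chosen with earlier results of these data known. Each member's regions called with 1 group, past the height test, at a start, highest or lowest were named. From the list of 62 other genes came the 5 genes with most regions in all 6 libraries, the 10 of lowest adjusted p and the 5 with most regions of 1 group. The labels do not say that equal replicate numbers pair libraries.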

Additional observations from a re-analysis of the deposited data

How the results depend on the processing

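Counts of member regions called only with Res-shFabp7 (5, or 2.70%, against 2.28% of all regions) were 3 at a q of 0.001 (1.76% against 2.23%), 1 with equal numbers of peaks (0.680% against 1.13%), 3 when merged across 200 bp and 3 with summit windows of 250 bp (1.94% against 2.48% each), 3 where peaks had to cover 50% of the region (1.62% against 2.82%) and 10 with 2 of 3 libraries (5.41% against 7.28%). They were 5 to 8 when each library was left out, the 8 without Res-ctrl replicate 1. Without Res-shFabp7 replicates 1, 2 and 3 the shares were 3.93%, 2.79% and 3.98%, against 3.95%, 4.1% and 4.43% of all regions. Without Res-ctrl replicates 1, 2 and 3 they were 4.37%, 3.24% and 2.91%, against 3.04%, 2.93% and 5.34%. With Res-ctrl replicate 3 alone as the control, added after the data had been seen, the count was 10 (5.46% against 4.27%). Those called only with Res-ctrl (0) were 3 with 2 of 3 libraries (1.62% against 1.1%), 0 to 2 with each library left out (2 without Res-ctrl replicate 2) and 16 against Res-ctrl replicate 3 alone (8.74% against 4.52%), where the criterion rests on a single control. The 79 regions in all 6 libraries were 59 to 79 in the settings that kept all 6, where the counts over all regions were 43479 to 56610. With 1 library left out, 79 to 85 member regions were called in every library kept (57588 to 61394 over all regions). With Res-ctrl replicate 3 alone as the control, 90 were called in every library kept (69055 over all regions).

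Regions of higher height (2, or 2.53%, against 2.72% of all regions) were 3 with quantile-normalised log2 pileup (3.8% against 3.13%). The third was the other region beside the Dgka start. They were 1 when merged across 200 bp (1.39% against 2.58%) and 1 with summit windows (1.3% against 2.43%). In both of these settings the Dgka call was lost. Regions of higher height were 0 with ranks of the fold over background, where 0 of all regions passed. They were 0 without Res-shFabp7 replicate 1, 2 or 3, against 0.465%, 1.16% and 0.816% of all regions. Without Res-ctrl replicate 1 they were 1 (a Ptpn2 region, 1.19% against 1.23%) and without replicate 2 also 1 (Ptpn22, 1.18% against 1.71%). Without replicate 3 they were 2 (Ptpn22 and a Cblb region, 2.5% against 3.68%). Regions of lower height (0, against 1.19% of all regions) were 1 with summit windows (1.3% against 1.06%), at the higher-coordinate end of Ptpn2. No direction was reversed for the 2 called regions. With the replicate block 2 regions were higher and 0 lower, as without it, against 3.24% and 1.49% of all regions. Same-numbered libraries deviated with correlations of -0.0245, 0.0150 and -0.0158. For the share of peaks at Ptpn22, Res-shFabp7 minus Res-ctrl was -0.00103 per 1000 and 0.0203 for lists of equal length (p = 0.3 by exact permutation). With 1 library left out, shares did not overlap at 4 genes, all lower with Res-shFabp7. They were Dgkz (without Res-shFabp7 2 or Res-ctrl 3), Ptpn2 (Res-shFabp7 3 or Res-ctrl 2), Cbl (Res-ctrl 2) and Dgka (Res-ctrl 3). Exact permutation p was 0.2 each, the smallest in any setting. The share of all genes that did so was not counted. The causes were not tested. A peak missing from a list does not show that the chromatin there was closed.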
